A study of Mus musculus with 24 samples.

Results

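The transcripts of 10 genes of pericellular proteolysis were followed in endothelial cells and microglia sorted from mouse brain slices: the matrix metalloproteases Mmp2, Mmp3, Mmp9, Mmp14 and Mmp15, the tissue inhibitors Timp1, Timp2 and Timp3, and the proteoglycan-cleaving proteases Adamts1 and Adamts9. They were chosen by gene symbol, and all 10 were found among the 20555 genes that each of the 2 expression tables lists. For 2 days in every group, the slices received either buffer alone (phosphate-buffered saline, PBS) or exosomes, small vesicles that cells release. The exosome dose was 5 µg per slice, and the vesicles were marked with the membrane dye PKH67. The exosomes came from donor cells called wild type (WT) or from the knockouts KO1 and KO2. The title of the series names CEMIP, a hyaluronan-binding protein, in tumour exosomes, and the samples' labels state neither the knocked-out gene nor the donor cells. After digestion of the slices with Dispase and Collagenase, endothelial cells were sorted as CD45-negative and CD31-positive cells, and microglia as CD45-positive cells with little CD11b and CD49d. Endothelial cells gave 10 libraries, 3 each for PBS and KO1 (letters A to C) and 2 each for WT (A and B) and KO2 (B and C). Microglia gave 11 libraries, 2 for PBS (A and B) and 3 each for WT, KO1 and KO2 (A to C). The labels describe every sample, PBS included, as exosome-positive, so how PBS cells were gated is not known. They give no age, strain or animal for a sample, and do not say what the letters stand for. All p-values therefore describe the spread between these libraries, which may be technical.

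Matrix metalloproteases are zinc-dependent enzymes that cut collagens, laminins, proteoglycans and cell-surface proteins. Most are secreted as inactive proenzymes, and membrane-type members such as Mmp14 stay anchored on the cell surface. TIMP proteins block the active site of these enzymes, and Timp2 additionally acts as an adaptor through which Mmp14 activates proMmp2. In brain vessels, gelatinases and stromelysin can cut basement membrane and tight junction proteins, and pericytes, glia and leukocytes are further sources of them besides endothelium.

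Positions on GRCm38.p6 are those of RefSeq genes, and strands are those of the GENCODE annotation. Mmp3 lies on chromosome 9 at 7445822 to 7455975, Mmp9 on chromosome 2 at 164940326 to 164955850 and Mmp14 on chromosome 14 at 54431598 to 54442456, all on the plus strand. Mmp2 (92827290 to 92853421) and Mmp15 (95352296 to 95374293) share chromosome 8, also on the plus strand. Timp1 lies on chromosome X at 20870166 to 20874737 and Timp3 on chromosome 10 at 86300412 to 86349505, both on the plus strand. On the minus strand are Timp2 on chromosome 11 at 118301061 to 118355411, Adamts1 on chromosome 16 at 85793827 to 85803113 and Adamts9 on chromosome 6 at 92772699 to 92944450. Values are for whole genes.

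Sequence just upstream of the start site was looked up for the members in a RefSeq promoter table on GRCm38.p6, which matched 8 of the 10. The windows of 3 members are shown because Mmp3 and Timp2 were higher with exosomes in every endothelial pair of libraries of the same letter, and Mmp14 in every microglial pair. Each window holds the 250 bases before the start, written 5′ to 3′ on the gene's strand. Capitals mark matches on either strand to TGANTCA, the AP-1 motif, or to AGGAAG, an ETS-type motif; the 2 motifs do not overlap in these windows. The windows lie at chr9:7445572-7445821 on the plus strand, chr11:118355412-118355661 on the minus strand and chr14:54431348-54431597 on the plus strand.
Mmp3 promoter: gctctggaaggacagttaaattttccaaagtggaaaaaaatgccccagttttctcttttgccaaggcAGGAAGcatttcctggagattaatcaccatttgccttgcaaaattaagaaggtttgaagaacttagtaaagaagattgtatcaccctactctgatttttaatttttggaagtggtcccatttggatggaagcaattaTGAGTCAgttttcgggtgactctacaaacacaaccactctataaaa
Timp2 promoter: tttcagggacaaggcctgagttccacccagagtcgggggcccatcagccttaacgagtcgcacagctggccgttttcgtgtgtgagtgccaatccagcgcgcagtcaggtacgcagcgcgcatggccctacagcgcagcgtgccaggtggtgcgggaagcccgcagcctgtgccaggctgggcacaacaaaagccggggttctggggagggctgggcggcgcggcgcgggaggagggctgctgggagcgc
Mmp14 promoter: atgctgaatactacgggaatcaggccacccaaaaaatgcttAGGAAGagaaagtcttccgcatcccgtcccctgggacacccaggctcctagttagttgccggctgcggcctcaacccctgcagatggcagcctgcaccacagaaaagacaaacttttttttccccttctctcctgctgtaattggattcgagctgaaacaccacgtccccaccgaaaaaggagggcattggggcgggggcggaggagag
The AP-1 letters stood in the Mmp3 window with their first base 46 bases before the start, and in none of the other 7 windows; 6.75% of the 32851 promoters of the table hold them. AGGAAG was found in the windows of Mmp3, Mmp14, Timp1 and Timp3 and in 29.5% of all promoters. The Timp2 window held neither. A match describes letters only and says nothing about binding.

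Values below are normalised counts recovered from the deposited log2 values, unless a log2 scale is named. Recovered totals were 25.7 to 28.0 M per endothelial library and 27.6 to 30.4 M per microglial library. Counts under about 50 are approximate in microglia. Endothelial libraries carried Pecam1 at 42620 to 56200 and Cldn5 at 53672 to 75757. Microglial libraries carried Ptprc, the gene of CD45, at 1529 to 3979, Itgam, the gene of CD11b, at 428 to 3377, and C1qb at 2217 to 8942. Among homeostatic markers, Sall1 reached 1212, Tmem119 432, Fcrls 181 and P2ry12 12.9. In endothelial cells the summed count of 12 choroid plexus and ependymal markers, mostly Ttr and Enpp2, was 965 to 7385 in PBS. It was 202237 to 360392 in the exosome libraries of letters A and B, 6727 in KO1 C and 22843 in KO2 C. In microglia the C libraries stood apart by lower border-associated macrophage markers, with sums of 3493 to 4526 against 6493 to 16242 in letters A and B. That sum was mostly Cd74, Stab1 and Pf4, with medians of 3461, 2400 and 1341. Mrc1, Lyve1 and F13a1 had medians of 0, and Cd163 and Cbr2 stood at 0 in every microglial library.

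No member passed the test of a difference between groups in either cell type. In the limma fit of each table with Benjamini-Hochberg adjustment over all genes tested, 0 of 10 members had an adjusted p under 0.05 in endothelial cells for WT minus PBS, where 0.0231% of 12972 genes did. The count was also 0 of 10 for the knockout mean minus PBS (0.116% of genes), the knockout mean minus WT (0.0308%), KO1 minus WT (0.00771%), KO2 minus WT (0.0231%), KO1 minus KO2 (0%) and any difference among the 4 groups (0.0154%). In microglia it was 0 of 10 for WT minus PBS and for the knockout mean minus PBS, with 0.00787% of 12709 genes in each. It was 0 of 10 for the other 5 microglial comparisons, in which 0% of genes passed. At an unadjusted p under 0.05, endothelial Mmp3 and Timp2 were reached for the knockout mean minus PBS, where 6.65% of genes were. Timp2 alone was reached in the endothelial test over 4 groups, where 8.02% of genes were. In microglia Mmp2 was reached for KO2 minus WT (3.05% of genes) and Mmp15 for KO1 minus KO2 (3.62%), both at levels near the floor. The other comparisons had 0 of 10 members at that p. The shares of genes there were, in endothelial cells, 9.71% for WT minus PBS, 8.06% for the knockout mean minus WT, 6.89% for KO1 minus WT, 7.35% for KO2 minus WT and 5.69% for KO1 minus KO2. In microglia they were 4.98% for WT minus PBS, 4.96% for the knockout mean minus PBS, 3.34% for the knockout mean minus WT, 3.82% for KO1 minus WT and 3.93% over 4 groups.

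The authors' deposited tables, which come from a likelihood ratio test over the groups, list Mmp3 in endothelial cells (adjusted p = 8.63e-08) and Mmp14 in microglia (adjusted p = 0.0105). These 2 are the only members listed, and the tables hold 1.76% of endothelial and 1.16% of microglial genes. No source used here gives the model behind that test. The limma fit on the deposited log2 scale did not call either gene, and the reason for this difference was not tested.

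In endothelial cells the stromelysin Mmp3, which cuts many matrix proteins and activates other proMmps, had 942 counts or fewer with PBS and 764 to 27839 with exosomes. Its normalised count in PBS was 180.4 for letter A, 942 for B and 73.9 for C, and in WT 3809 for A and 17891 for B. The knockout libraries had 23139.6, 27839 and 764 in KO1 A, B and C, and 22336 and 3306 in KO2 B and C. The group means were 399 ± 473 (SD, n = 3) for PBS, 10850.0 ± 9957 (n = 2) for WT, 17248 ± 14468 (n = 3) for KO1 and 12821 ± 13456 (n = 2) for KO2. WT and PBS did not overlap, whereas KO1 C lay below PBS B. Between libraries of the same letter Mmp3 was higher with exosomes in 7 of 7 pairs, by 10.3 to 128 times with a median of 23.7. Pairs of a letter share its PBS library, so the 7 pairs are not independent of each other. On the deposited log2 scale WT minus PBS was 1.09 (SE 0.54, adjusted p = 0.546) and the knockout mean minus PBS was 1.22 (SE 0.43, adjusted p = 0.608), by limma. That scale compresses the change, and on log2(count + 50) the differences were 4.77 (SE 1.65, adjusted p = 0.443) and 4.78 (SE 1.33, adjusted p = 0.554).

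The gelatinases were scarce. In the endothelial cells Mmp9, gelatinase B, had 0, 57.6 and 185 counts with PBS (letters A to C), 26.4 and 1177 with WT exosomes, 0 in all 3 KO1 libraries, and 782 and 0.899 in KO2 B and C. Mmp2, gelatinase A, stood at 0 in 8 of 10 endothelial libraries and had 929.9 in KO1 B and 745 in KO2 B. Both genes thus had their highest counts in letter B, and Mmp9 differed in direction between pairs of the same letter, with 3 higher and 3 lower of 7. In these endothelial libraries Itgam, the gene of the myeloid protein CD11b, was highest in the 3 exosome libraries of letter B (1226 for WT, 1298 for KO1, 438 for KO2) and reached at most 27.3 in the other 7. Ptprc was at 0 in 8 of the 10, with 119 in KO1 B and 289.7 in KO2 C. Of other microglial markers in these libraries, C1qb reached 800, Fcrls 11.4 and Tmem119 3.77. P2ry12 and Sall1 stood at 0 in every endothelial library. The part of myeloid cells was not tested.

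**Figure D1:**
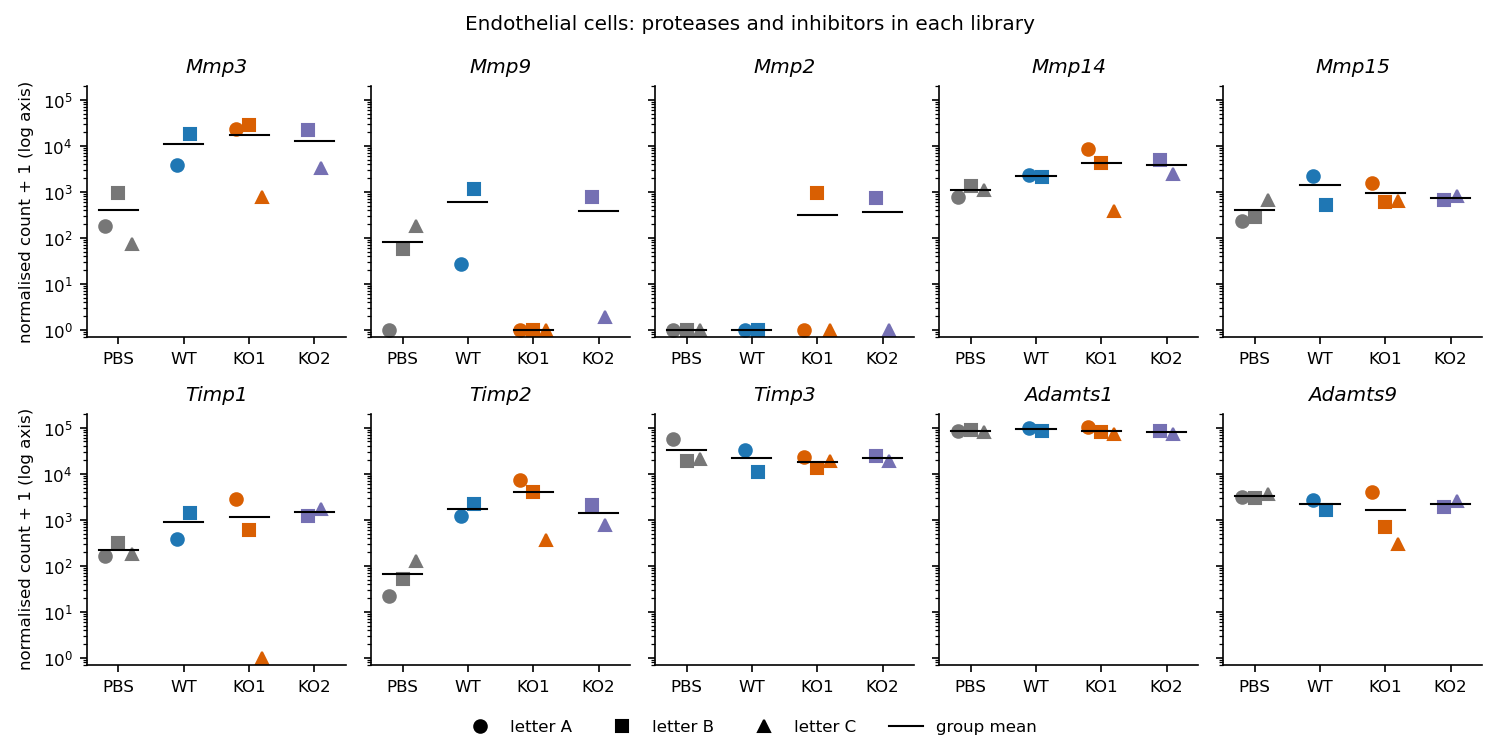
Normalised count plus 1 (log axis) of the 10 genes in the 10 endothelial libraries, by group; symbols give the letter and bars the group mean. Mmp3, Timp2, Timp1 and Mmp14 lie higher in WT A and B than in all 3 PBS libraries, Adamts1 lies between 71342 and 103675 throughout, and KO1 C is the lowest exosome library for Mmp3, Mmp14, Timp1, Timp2 and Adamts9.

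Mmp14, the membrane-type protease that activates proMmp2 and cuts fibrillar collagen, had 783, 1335 and 1114 counts in the endothelial PBS libraries and 2362 and 2162 in those of WT. KO1 A, B and C had 8466, 4202 and 377, and KO2 B and C had 5029 and 2504. Every exosome library except KO1 C lay above all 3 PBS libraries. Within letters Mmp14 was higher in 6 of 7 pairs, with ratios from 0.339 in KO1 C to 10.8 in KO1 A. The deposited log2 difference was 0.21 (SE 0.23, adjusted p = 0.811) for WT minus PBS and 0.38 (SE 0.19, adjusted p = 0.814) for the knockout mean minus PBS by limma. Without the C libraries the second of these was 0.59 (SE 0.13, adjusted p = 0.355). Mmp15, another membrane-type protease, had 237, 283 and 675 counts in PBS, 2257 and 516 in WT, 594 to 1568 in KO1, and 655 and 835 in KO2. It was higher in 6 of 7 pairs, and the groups overlapped.

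Among the inhibitors, Timp2 was the member whose 7 exosome libraries all lay above all 3 PBS libraries of the endothelial cells. Of all genes tested, 1.05% had that order. Its counts were 21.4, 49.3 and 127 with PBS (A to C) and 1186 and 2157 with WT exosomes. KO1 gave 7414, 4013 and 362 (A to C), and KO2 gave 2036 and 748. Group means were 66.0 ± 54.9 (SD, n = 3) in PBS, 1672 ± 687 (n = 2) in WT, 3929.8 ± 3527 (n = 3) in KO1 and 1392 ± 911 (n = 2) in KO2. The ratio within a letter ran from 2.85 in KO1 C to 346 in KO1 A, with a median of 43.8. The PBS values under these ratios lay only 0.067 to 0.163 above the floor on the deposited log2 scale. The deposited log2 difference was 0.47 (SE 0.22, adjusted p = 0.532) for WT minus PBS and 0.55 (SE 0.18, adjusted p = 0.574) for the knockout mean minus PBS by limma. On log2(count + 50) without the C libraries, a setting chosen after seeing the data, the second was 5.33. That setting kept KO2 B as the only KO2 library. It left out the highest PBS library (C) and the lowest exosome library (KO1 C). Mmp3 and Timp2 were the 2 of 10 members that were higher in every pair of the same letter, against 2.76% of genes. No member was lower in every pair (4.04% of genes) or had all exosome libraries below all PBS libraries (1.84%).

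Timp1, an inducible inhibitor of most secreted metalloproteases, had 159, 309.6 and 183 counts in the endothelial PBS libraries, and 381 and 1386 with WT exosomes. It had 2794, 596 and 0 in KO1 A, B and C, and 1206 and 1674 in KO2 B and C. The libraries thus spanned from no reads in KO1 C to the highest value in KO1 A, both within 1 group, and 6 of 7 pairs were higher. Mmp3, Mmp14, Timp1 and Timp2 were the 4 members whose WT libraries lay above all PBS libraries, an order that 13.3% of genes showed.

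Timp3, the inhibitor that binds to matrix and also blocks ADAM proteases, went the other way in its values. Its endothelial counts with PBS were 56652 in A, 18648 in B and 20847 in C. WT gave 32825 and 10824 (A, B), KO1 gave 22430.1, 12977 and 18970.2 (A to C), and KO2 gave 24719.7 and 18722 (B, C). It was lower with exosomes in 6 of 7 pairs, with KO2 B the exception, by ratios of 0.396 to 1.33. The ranges overlapped, and the deposited log2 difference was -0.34 (SE 0.34, adjusted p = 0.787) for WT minus PBS and -0.35 (SE 0.27, adjusted p = 0.927) for the knockout mean minus PBS by limma. The sum of 12 astrocyte markers was also highest in PBS A (41756) and lowest in WT B (9333) and KO1 B (13715), but WT A, next highest for Timp3 after PBS A, was next lowest in that sum (16671). The sum was nearly all Gja1, a connexin gene (7924 to 40604), while Gfap, Aqp4, Aldh1l1, Slc1a3, Gjb6 and Fgfr3 had medians under 1. Its part in the Timp3 values was not tested.

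Per kb of exon, which allows genes to be compared, Mmp3 made up 10.1 to 64.1% of the summed level of the 5 Mmp members with PBS (3 endothelial libraries) and 70.1 to 93.4% with exosomes (7 libraries). That sum was 276 to 816 per kb with PBS and 605 to 16549 with exosomes. Timp3 made up 86.4 to 97.4% of the summed level of the 3 Timp members with PBS and 35.3 to 96.2% with exosomes, the highest being KO1 C. The Timp sum was 2651 to 7141 per kb with PBS and 2422 to 7803 with exosomes, so these ranges overlapped widely. These shares were formed after the values had been seen and are a description.

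Adamts1, which cuts the proteoglycans versican and aggrecan, was the member of highest mean level per kb in both cell types. Its endothelial counts were 82398, 87161 and 78986 in PBS, 100278 and 83153 in WT, 71342 to 103675 in KO1, and 85669 and 73009.7 in KO2. The 95% interval of the deposited log2 difference was -0.31 to 0.55 for WT minus PBS and -0.36 to 0.33 for the knockout mean minus PBS, by limma. Adamts9, another versican-cleaving protease, had 3044, 2902 and 3675 counts in PBS, 2719 and 1658 in WT, 3922, 678 and 289 in KO1 A, B and C, and 1856 and 2604 in KO2. Both WT libraries lay below all 3 PBS libraries, as for 17.8% of genes, and 6 of 7 pairs were lower.

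Exosomes of the knockouts and of WT could not be separated for any member in endothelial cells. The knockout mean minus WT was 0.13 on the deposited log2 scale for Mmp3 by limma, with a 95% interval of -0.98 to 1.24. It was 0.08 (-0.39 to 0.54) for Timp2 and 0.16 (-0.32 to 0.65) for Mmp14, and adjusted p ranged from 0.766 to 1.0 over the 10 members. These intervals include differences in both directions, and without letter A the estimates were -0.46 for Mmp3 and -0.11 for Timp2. No member had all knockout libraries above both WT libraries (3.79% of genes) or below them (4.25%). Within letters, Mmp3 and Mmp14 were higher with knockout than with WT exosomes in 3 of 3 pairs, by 1.25 to 6.07 times and 1.94 to 3.58 times. Mmp9 was lower in 3 of 3. Of all genes, 13.6% were higher and 13.1% lower in all 3 of these pairs. The pairs of KO1 B and KO2 B share WT B and are not independent. KO1 and KO2 shared letters B and C. Mmp3 in KO1 was 1.25 times its KO2 count in letter B and 0.231 times in C, and for Mmp14 the ratios were 0.836 and 0.151.

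**Figure D2:**
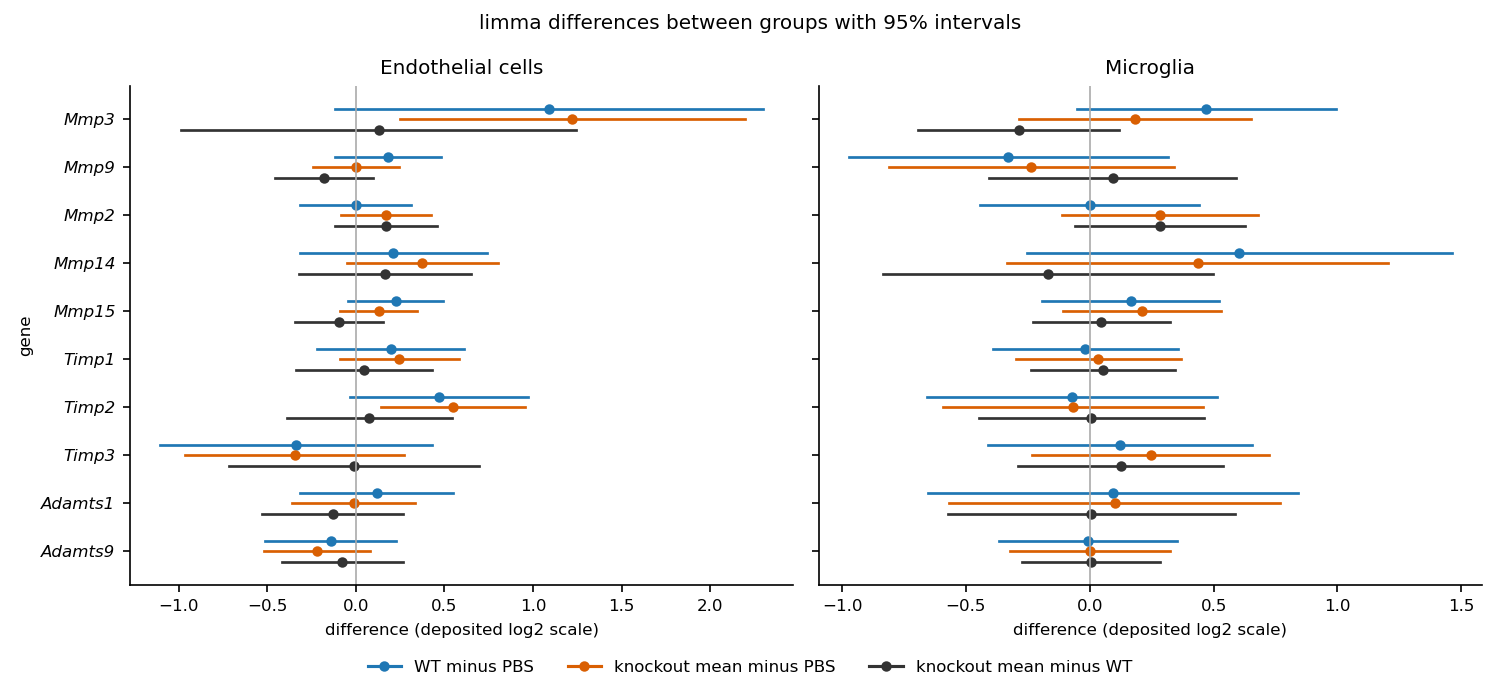
Difference between groups on the deposited log2 scale (x axis) with its 95% limma interval, for each gene (y axis) in both cell types. Endothelial Mmp3 and Timp2 are the genes whose interval for the knockout mean minus PBS lies above 0, and the intervals of all genes include 0 for the knockout mean minus WT.

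In microglia the prominent member was Mmp14. It had 436 and 259.5 counts in PBS A and B, 2984, 2609 and 52.7 in WT A, B and C, 1964, 1355 and 134 in KO1 A, B and C, and 1915, 1839 and 368 in KO2 A, B and C. The exosome libraries of letters A and B all lay above both PBS libraries, while those of letter C lay among or below them. No PBS C library was analysed here, so letter C has no PBS value of its own. In the 6 pairs with PBS of the same letter Mmp14 was higher in 6 of 6, by 4.39 to 10.1 times. These pairs reuse PBS A and B and are not independent of each other. Mmp14 was the 1 member of 10 to be higher in all 6, against 6.21% of genes, and none was lower in all 6 (7.07%). No member had separate groups for WT against PBS (7.81% of genes higher, 8.81% lower), all exosomes against PBS (1.68% and 2.05%) or knockouts against WT (0.787% and 0.826%). None was higher (2.69%) or lower (2.97%) with knockout than with WT exosomes in all 6 pairs. The deposited log2 difference was 0.60 (SE 0.39, adjusted p = 0.970) for WT minus PBS and 0.44 (SE 0.35, adjusted p = 0.965) for the knockout mean minus PBS by limma. Without the C libraries these were 1.04 (SE 0.12, adjusted p = 0.190) and 0.69 (SE 0.11, adjusted p = 0.229). The knockout mean minus WT was -0.17 (95% interval -0.83 to 0.50) and turned to 0.18 on log2(count + 10). Within letters Mmp14 was lower than with WT exosomes in the 4 pairs of A and B and higher in the 2 pairs of C.

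**Figure D3:**
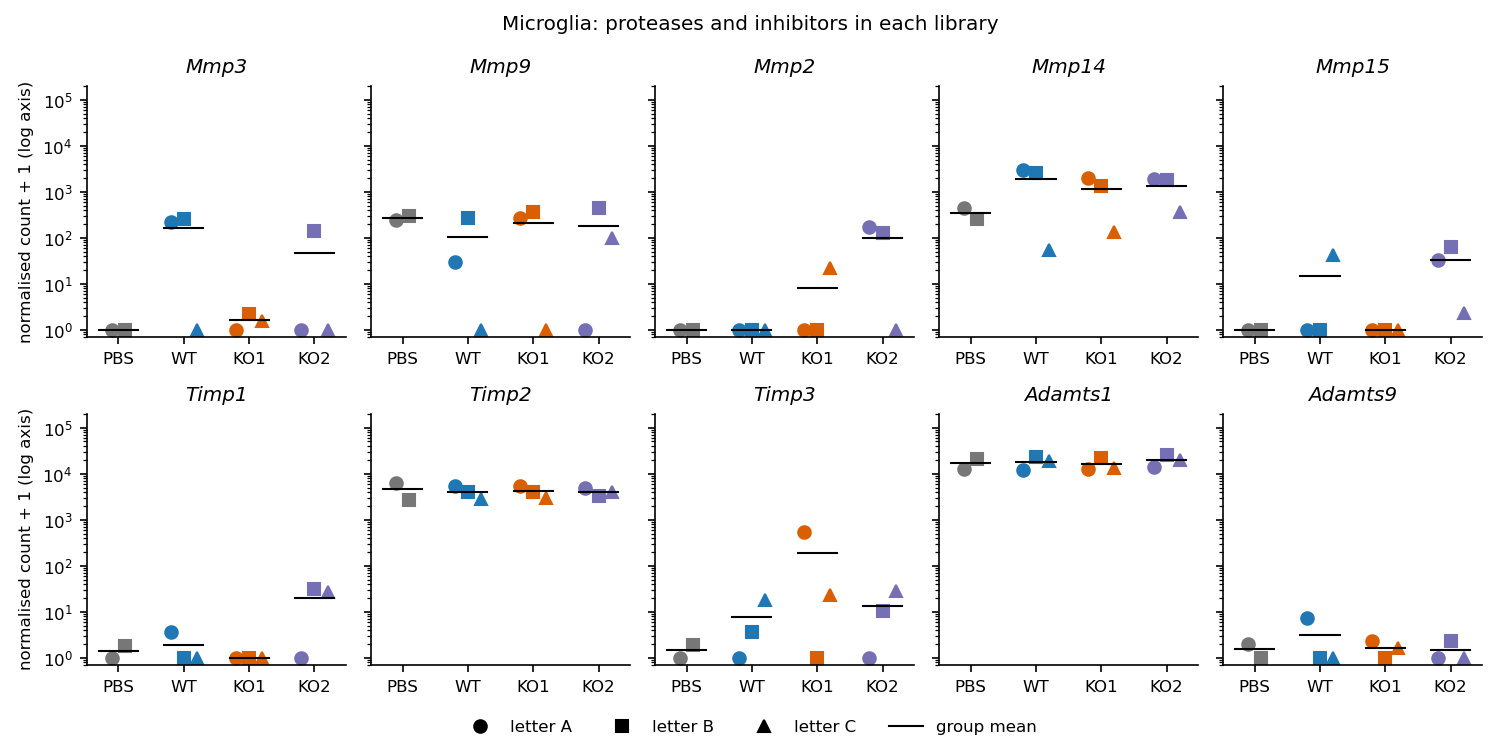
Normalised count plus 1 (log axis) of the same genes in the 11 microglial libraries, drawn as for the endothelial cells. Adamts1 and Timp2 are high in every library, Mmp14 is higher with exosomes in letters A and B and low in letter C, and the other 7 genes have libraries at 0.

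Timp2 had 6419 and 2656 counts in PBS A and B, 5366, 4022 and 2829 in WT, 5262, 4071 and 2997 in KO1, and 4837, 3253 and 3956 in KO2. It was higher in 3 and lower in 3 of 6 pairs with PBS and highest in letter A within each of the 4 groups, and the deposited log2 difference for WT minus PBS was -0.07 (95% interval -0.66 to 0.51) by limma. Adamts1 had 12879 and 20364 in PBS A and B, and 12023 to 26025 in the 9 exosome libraries. Its values were highest in B within each of the 4 groups. So were the border-associated macrophage sum, the sum of oligodendrocyte markers and the recovered totals, and the part of these was not tested.

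The remaining members were low in microglia. Mmp9 had 241 and 302 counts in PBS A and B, 29.1, 277 and 0 in WT, 277, 369 and 0 in KO1, and 0, 439.8 and 98.6 in KO2. Mmp3 stood at 0 in both PBS libraries and had 226 and 256 in WT A and B, 137 in KO2 B, and 1.25 or fewer in the other 6. Timp3 reached 544 in KO1 A, the library highest in pericyte and smooth muscle markers (1379 against 90.2 to 633 elsewhere), and 27.0 or fewer in the others. Of these 12 markers 7 were at 0 in KO1 A. Over the microglial libraries Anpep, Pdgfrb and Cspg4 reached 577, 535 and 279, and Rgs5 reached 15.5. Kcnj8, Myh11, Vtn, Notch3 and Higd1b stood at 0 in every library. The part of such cells in the Timp3 value was not tested. Mmp2 reached 175, Mmp15 62.9, Timp1 29.9 and Adamts9 6.45, and each of these 4 was at 0 in 6 or more of the 11 libraries.

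**Figure D4:**
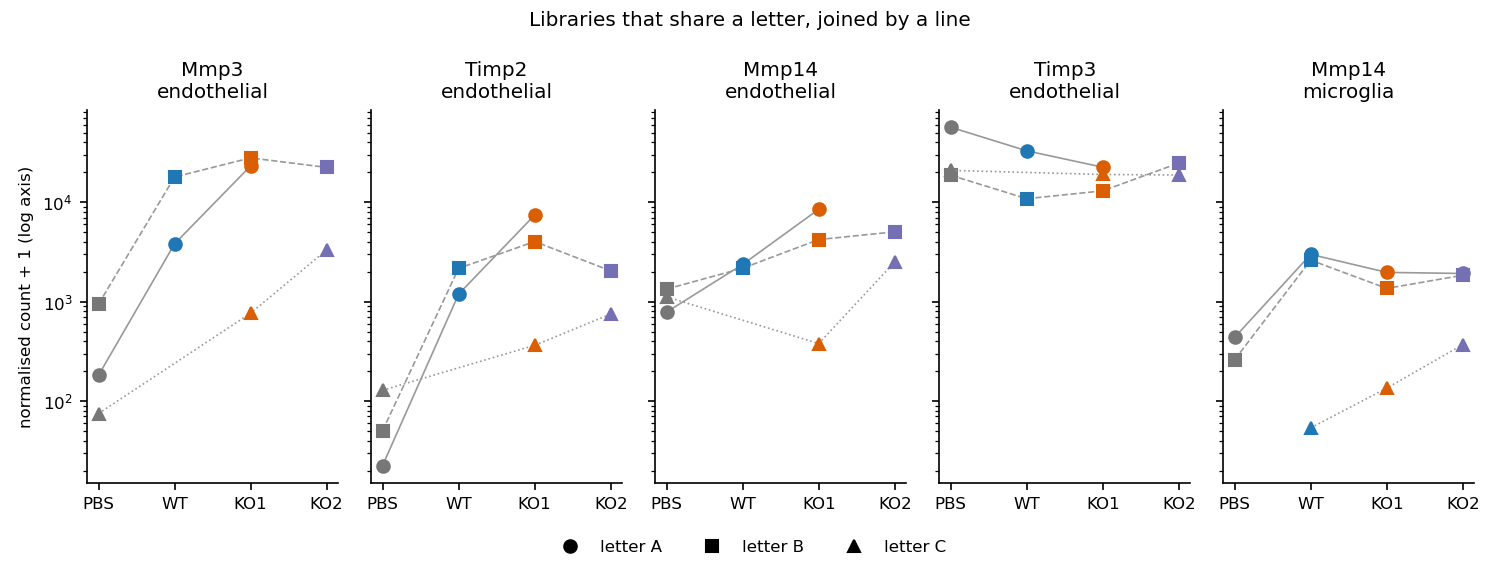
Normalised count plus 1 (log axis) in the 4 groups, with libraries of the same letter joined by a line, for Mmp3, Timp2, Mmp14 and Timp3 in endothelial cells and Mmp14 in microglia. Mmp3 and Timp2 lie above PBS along every line, endothelial Mmp14 along every line except in KO1 C, and the C line of microglial Mmp14 lies below A and B.

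The order of levels per kb of exon in endothelial cells was Adamts1 (15984 ± 1961, SD over 10 libraries), Mmp3 (5568 ± 6279), Timp3 (2918 ± 1603), Timp1 (978 ± 999.6), Mmp14 (475 ± 413), Timp2 (465 ± 600.0), Adamts9 (155 ± 79.8), Mmp15 (153 ± 115), Mmp9 (63.0 ± 117) and Mmp2 (49.7 ± 106). The ranges of all neighbours in that order overlapped. The order pools PBS and exosome libraries: Mmp3 lay above Timp3 in 4 of 10 libraries, and with PBS it averaged 221 per kb against 3935 for Timp3. In microglia it was Adamts1 (3343 ± 918, SD over 11 libraries), Timp2 (1066 ± 309) and Mmp14 (212 ± 178), whose ranges did not overlap. Mmp9 (52.2 ± 46.2) and Mmp3 (31.3 ± 55.5) followed with overlapping ranges, and the other 5 averaged 8.76 per kb or less. The tables of the cell types were normalised separately, so levels across them are set side by side without a test. Timp3 averaged 2918 per kb in the endothelial table and was near the floor in the microglial one outside KO1 A, and Timp2 was the leading Timp of microglia, with 95.3 to 100% of the Timp sum per kb in every library. Of the Mmp sum in microglia, Mmp14 made up 33.8 to 51.8% with PBS and 53.1 to 84.7% with exosomes, and Mmp9 48.2 to 66.2% and 0 to 31.4%.

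Markers of other cells moved with several endothelial members. The 12 fibroblast and meningeal markers summed to 797 to 1561 counts with PBS and to 3777 and 5904 with WT exosomes. KO1 gave 7065, 9458 and 166 (A to C), and KO2 gave 7124 and 2971 (B, C). Libraries high in this sum were those high in Mmp3, Timp2 and Mmp14, and KO1 C was lowest of the exosome libraries in all 4. The order against PBS was less uniform. KO1 C lay below every PBS library in this sum and in Mmp14 (377). Its Timp2 (362) lay above every PBS library, and its Mmp3 (764) lay above PBS A and C but below PBS B. Of the 12, Dcn, Igf2, Mgp and Lum carried most counts, reaching 3759.5, 2953, 2239 and 997, and Col1a2 and Col3a1, with medians of 0, reached 481 and 326. Slc6a13, Col6a1, Fbln1 and Slc47a1 stood at 0 in every library, and Col1a1 and Pdgfra reached 3.68 and 2.12. Between 5 and 10 of the 12 were at 0 in a library. The choroid plexus sums given above were also higher in the exosome libraries of letters A and B than with PBS. KO1 C (6727) was again lowest of the exosome libraries, but lay within the PBS range. Their order among the A and B exosome libraries was not the same. KO1 A, highest in Timp2 and Mmp14, had the lowest choroid plexus sum of these (202237). Between 0 and 9 of those 12 markers were at 0 in a library. Pericyte and smooth muscle markers summed to 2206 to 4522 in PBS and highest in the 3 exosome libraries of letter B (8387 for WT, 7028 for KO1 and 5745 for KO2), the libraries in which Mmp2 or Mmp9 had their highest counts. The 12 endothelial markers summed to 302014 to 327330 with PBS and 256626 to 313505 with exosomes, and 12 monocyte and neutrophil markers to 289 or less. The part of these other cells in the endothelial differences was not tested, and in sorted pools fewer cells of a type and less RNA per cell cannot be told apart. In microglia, where Mmp14 differed by letter, fibroblast markers summed to 181 or less, 9 to 12 of 12 being at 0, and endothelial markers to 948 or less. The lower border-associated macrophage sums of the C libraries ran with their low Mmp14. Their choroid plexus sums were lower too, at 19.9 to 51.9 against 77.5 to 12751 in letters A and B. So were their recovered totals, at 27.6 to 27.9 M against 28.1 to 30.4 M. The part of each of these was not tested.

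**Figure D5:**
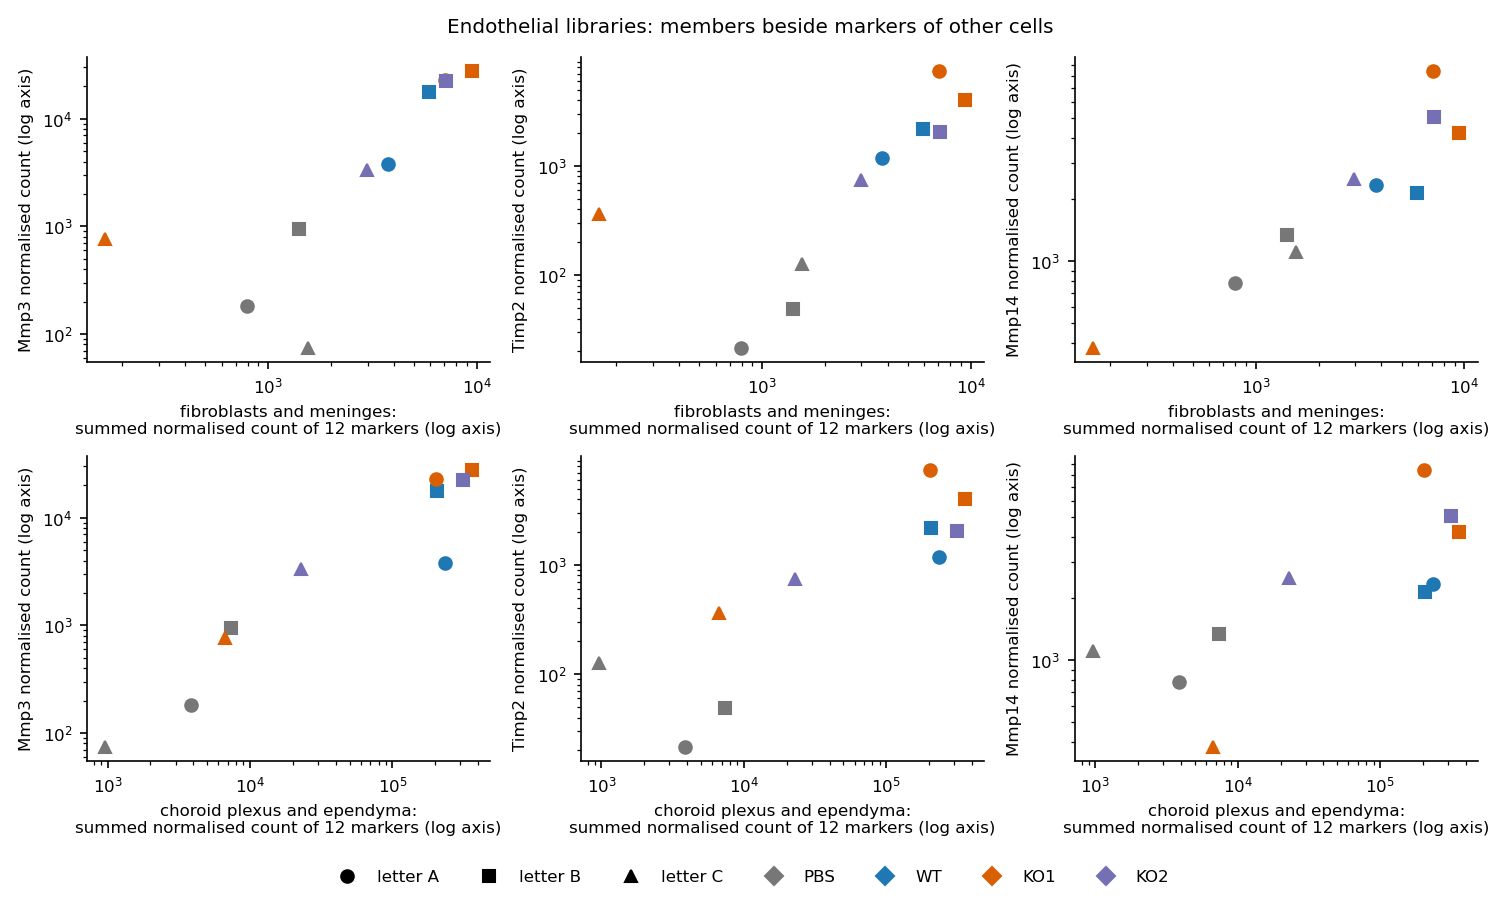
Normalised counts of Mmp3, Timp2 and Mmp14 (y axes, log) against the summed count of 12 fibroblast and meningeal markers (upper row) or 12 choroid plexus and ependymal markers (lower row) in the 10 endothelial libraries (x axes, log). PBS libraries and KO1 C lie at the lower left and the exosome libraries of letters A and B at the upper right. For Mmp14 KO2 C lies above both WT libraries (2504 against 2362 and 2162).

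Genes with the most similar pattern were sought for members at least 1 above the floor on average on the deposited log2 scale, by Pearson correlation over the libraries, among genes past the same limit. All points of such a correlation share their library, so it is given as a description. For endothelial Mmp3 (10 libraries, 1068 genes) they were Eno1b (0.964), Eno1 (0.960) and Sod2 (0.952); Eno1 and Eno1b are near-identical enolase genes between which reads can be split. For Timp3 they were Hbegf (0.879), Sh3glb1 (0.864) and S1pr1 (0.863), and for Adamts1 Atp1b3 (0.950), Ly6a (0.933) and Icam2 (0.928). For microglial Mmp14 (11 libraries, 5227 genes) they were Acod1 (0.976), which makes itaconate, and the chemokines Ccl2 (0.947) and Ccl5 (0.947). Those of Timp2 were Ankle2 (0.877), Ppm1b (0.869) and Peak1 (0.865), and those of Adamts1 were Ppp1r2 (0.916), Dtnbp1 (0.913) and Impact (0.892).

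The wider system was described by 6 lists with 80 genes, and 0 of those tested passed an adjusted p of 0.05 by limma in either direction for WT minus PBS, the knockout mean minus PBS or the knockout mean minus WT, in either cell type. Among 18 other Mmp genes, 10 were tested in endothelial cells, and their median deposited log2 difference for the knockout mean minus PBS was 0.02, beside -0.01 over all genes. The 2 of highest mean were Mmp13, an interstitial collagenase, with 315 ± 111 counts (SD, n = 3) in PBS, 327 ± 459.9 (n = 2) in WT, 1181 ± 1751 (n = 3) in KO1 and 2315 ± 115 (n = 2) in KO2, and Mmp12, the macrophage elastase, with 81.4 ± 46.7 in PBS and 1181 ± 1670.2 (n = 2) in WT. Microglia had 13 tested, led by Mmp12 with 3370.1 ± 2371 counts in PBS and 2339.7 ± 783 in WT, and the median for WT minus PBS was 0.09. Of the 17 other Adamts genes 9 were tested in endothelial cells, with Adamts4, an aggrecanase, at 31920.1 ± 7529 counts in PBS and 50628 ± 14823 in WT (log2 difference 0.47, SE 0.33, adjusted p = 0.689 by limma). In microglia 4 were tested, and the highest mean was that of Adamts14, with 183 ± 255 counts in PBS.

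Among 9 membrane ADAM proteases, 7 were tested in endothelial cells with a median log2 difference of -0.04 for WT minus PBS. Adam15 had the highest mean, with 11163 ± 1662 counts in PBS and 9399 ± 3510 in WT (adjusted p = 0.757 by limma). Adam10, a sheddase of Notch and cadherins, had 6958 ± 1252 counts in PBS and 3298 ± 110.3 in WT (adjusted p = 0.579 by limma). In microglia 6 were tested, led by Adam8 with 31423 ± 19529 counts in PBS and 41285 ± 3885 in WT (adjusted p = 0.965 by limma). Of 10 other inhibitors 8 were tested in each cell type. Cst3, the cysteine protease inhibitor cystatin C, had 6106 ± 1221 endothelial counts in PBS and 11394 ± 4853 in WT (adjusted p = 0.452 by limma), and 304192 ± 106117 microglial counts in PBS.

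All 10 genes of activation, induction and clearance were tested in both cell types. Plat, the tissue plasminogen activator, had the smallest adjusted p of these lists, with 58427 ± 3291 endothelial counts in PBS and 27361 ± 160.0 in WT (log2 difference -0.77, SE 0.14, adjusted p = 0.141 by limma). Plaur, the urokinase receptor, had 35741 ± 4681 in PBS and 31072 ± 9228 in WT. In microglia the most abundant were Bsg, an inducer of metalloproteases, and the hyaluronan receptor Cd44, at 14736 ± 2620.2 and 7779 ± 496 counts in PBS. Of 16 proteoglycan and matrix substrates 12 were tested in endothelial cells, with the basement membrane collagens Col4a1 and Col4a2 highest. Col4a1 had 85403 ± 18032 counts in PBS and 56227 ± 2198 in WT (adjusted p = 0.513 by limma). In microglia 7 were tested, with Thbs1 highest at 4976 ± 3272 counts in PBS and 9288 ± 8251 in WT.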

How the data were processed

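The members and the lists of other genes were chosen with earlier results of these data known. Per the submitters' processing notes, the tools of the authors were DESeq2 1.18.1, Salmon 0.10.0, Trimmomatic 0.38 and FastQC 0.11.7, and the build was GRCm38.p6. The authors deposited 1 table per cell type of variance-stabilised counts in log2 units, whose lowest value, that of genes without reads, is 13.2814 (endothelial) or 9.8893 (microglia). The authors also deposited tables named for a likelihood ratio test, with p-values, mean normalised counts (a signal), and scores (a statistic and an error) and log2 fold changes that were not used here.

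Normalised counts were recovered from the deposited log2 values as a description. The endothelial transform could be inverted in closed form, which returned the authors' own means for 362 genes. For microglia the 238 means of the authors anchored a rising spline, which missed held-out genes by at most 0.517% and has no anchor below a mean of 54.3. The depth in reads is not known from these values, and the recovered totals are given in its place. The deposited log2 values went into limma 3.58.1 (R 4.3.3), 1 model per cell type over all its libraries with trended variance, no letter term, and Benjamini-Hochberg adjustment at 0.05. Genes entered when above the floor in at least 2 libraries, which kept all 10 members in both tables (12972 of 14164 varying endothelial genes, 12709 of 13950 microglial). Levels per kb use the merged exon length in GENCODE. All 10 members are named. No gene of the lists passed the threshold, and from each list 1 or both of the 2 genes of highest mean are named. Groups came from the sample titles; the endothelial samples WT C and KO2 A and the microglial PBS C were not analysed here. Alternatives changed the filter, scale, centring, trend, letter term and libraries. The fit was tested on simulated data. Timp1, Timp2 and Timp3 overlap Syn1, Cep295nl and Syn3 in the annotation, which reached at most 34.9 counts in any library. One marker gene and the microglial marker sum that holds it are not reported here.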

Additional observations from a re-analysis of the deposited data

Results flagged for a closer look

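For 2 genes every pair of libraries of the same letter went one way in 1 cell type and the opposite way in the other, over 2 pairs in each. For Mmp9 with WT exosomes over PBS the median log2 difference within letters was 0.229 in endothelial cells and -0.129 in microglia. For Adamts1 with KO2 exosomes over PBS it was -0.0563 in endothelial cells and 0.252 in microglia. The difference between the cell types was not tested in either case. Of 11803 genes tested in both cell types, 11.8% had such a pattern for WT over PBS and 10.9% for KO2 over PBS, beside 1 of 10 members in each.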

How the results depend on the processing

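Of 341 alternatives tried over the 14 counts of members called, 340 kept the count at 0. On log2(recovered count + 50) with the C libraries left out, chosen after seeing the data, 1 member (Timp2) was called for the endothelial knockout mean minus PBS. The exosome-minus-PBS differences of endothelial Mmp3, Timp2 and Mmp14 and of microglial Mmp14 kept their direction in the alternatives tried. The direction of the other differences, microglial Timp2 included, was not followed in this way. With libraries or letters left out, the endothelial knockout mean minus WT ranged from -0.460 to 0.709 for Mmp3 and from -0.111 to 0.271 for Timp2, and that of microglial Mmp14 from -0.604 to 0.0771. On log2(recovered count + 10) it was -0.00117 for endothelial Mmp3 and 0.185 for microglial Mmp14, and for the latter 0.0389 on log2(recovered count + 50), with the same 2 values when the letter was a replicate block. The cause of these reversals was not tested. With the letter as replicate block no member was called in any comparison, endothelial Mmp3 was 0.77 for WT minus PBS and 1.24 for the knockout mean minus PBS, and microglial Mmp14 was 0.92 and 0.75. Over all genes the block moved the calls from 3 to 0 (WT minus PBS) and from 15 to 0 (knockout mean minus PBS) in endothelial cells, and from 1 to 19 and from 1 to 11 in microglia. Libraries of the same letter had correlated deviations of 0.0918 to 0.569 (endothelial) and 0.0201 to 0.554 (microglia), and 9 of 10 and 10 of 11 libraries correlated best with their own letter, a hint from the data and not from the labels. Counts over all genes were few and unsteady: leaving out libraries gave 0 to 44 for endothelial WT minus PBS and 0 to 11 for the knockout mean minus PBS, and the other alternatives gave 0 to 19 and 0 to 58. A closed-form inverse of the microglial values moved the mean levels of Mmp15 to 52.2, Timp1 to 36.6 and Adamts9 to 24.1, which shows how uncertain counts near the floor are.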
